A study of Mus musculus with 9 samples.

Results

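The 8 genes described here encode C-type lectin receptors of myeloid cells: Clec4e, Clec4d, Clec4n, Clec5a, Clec4a1, Clec4a3, Clec4a2 and Clec12a. They were taken by symbol from a table of 23134 mouse genes, and all 8 were present and passed the filter on low values that left 16575 genes for testing. C-type lectin receptors are membrane proteins whose extracellular lectin fold binds sugars, glycolipids, crystals or material of dead cells. The activating members signal through adaptors that carry an activation motif (Fcer1g or Tyrobp), the kinase Syk and the scaffold Card9, and the inhibitory members recruit phosphatases such as Ptpn6 through an inhibitory motif in their own tail. In the brain they are carried by microglia, by macrophages of the borders and by blood myeloid cells that enter during inflammation.

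RNA was measured by sequencing of polyadenylated transcripts in CD11b-positive cells collected on magnetic beads from cortex and hippocampus, after astrocytes had been removed with beads against ACSA-2. The mice were 2 to 3 months old, and tissue was taken 72 hours (day 3) after injection into the peritoneum. The 3 groups, with 3 libraries each, were control mice given saline, control mice given 5 mg/kg lipopolysaccharide (LPS, from the outer membrane of Gram-negative bacteria), and mice lacking Chd8, which encodes a chromatin remodeller, in astrocytes (conditional knockout, cKO), given the same dose of LPS. The promoter or Cre line behind the knockout is not given in the sources used here, and a saline group of the cKO was not analysed here. All titles hold the word saline, those of the cKO samples included, but the genotype and treatment labels and the names of the authors' own comparisons give LPS for the cKO, and LPS was used. The labels do not say that the libraries of a group came from separate mice, so the p-values reflect only how these samples scatter, and that scatter may be technical. CD11b is also carried by neutrophils and monocytes, and in such bulk samples fewer cells of a type and less RNA per cell cannot be told apart.

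The libraries held 10845937 to 86571481 reads, with the lowest depth in control saline library 3. Every homeostatic microglia marker had at least 5577 normalized counts in every library. Chd8 itself was measured at 4252 to 6596 normalized counts, in cells in which it was not targeted, and no difference between cKO LPS and control LPS passed the test (log2 difference 0.01, limma adjusted p = 0.9999). Control LPS library 1 stood apart: its summed astrocyte markers reached 105400 normalized counts against at most 9501 in the other libraries, and on the first principal component it lay at -57.3, beside the saline libraries at -87.0 to -60.8; the other LPS libraries lay at 21.5 to 78.6. For receptors that passed the test in control LPS with or without this library, both results are given. Results of cKO LPS against saline are not given separately without it.

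Of the 8 genes, 6 lie within 368 kb on mouse chromosome 6 (positions from RefSeq, GRCm38.p6). In order they are Clec4a1 (122921848 to 122934619), Clec4a3 (122952515 to 122969878), Clec4a2 (123122690 to 123143999), Clec4n (123229843 to 123247024) and Clec4d (123262107 to 123275268) on the plus strand, and Clec4e (123281789 to 123289871) on the minus strand. Clec12a (129349783 to 129365303, plus strand) lies 6.06 Mb beyond the cluster, and Clec5a (40574898 to 40585805, minus strand) lies far from it on the same chromosome. RefSeq promoter windows, from 250 bases before to 50 bases after an annotated start, were at hand for 7 of the 8 genes. The Clec12a window does not lie at the first base of the gene given above but begins downstream of it, inside the gene, so the bases before that first base were not searched. The windows of 4 genes are shown: Clec4e, Clec4d and Clec12a were raised after LPS and Clec5a was not. That of Clec4a1, which was also raised, is not shown. Capitals mark matches to the motifs searched, on either strand. The windows are chr6:123289822-123290121 (minus strand) for Clec4e, chr6:123261857-123262156 (plus) for Clec4d, chr6:129349994-129350293 (plus) for Clec12a and chr6:40585756-40586055 (minus) for Clec5a, in GRCm38.p6.
Clec4e: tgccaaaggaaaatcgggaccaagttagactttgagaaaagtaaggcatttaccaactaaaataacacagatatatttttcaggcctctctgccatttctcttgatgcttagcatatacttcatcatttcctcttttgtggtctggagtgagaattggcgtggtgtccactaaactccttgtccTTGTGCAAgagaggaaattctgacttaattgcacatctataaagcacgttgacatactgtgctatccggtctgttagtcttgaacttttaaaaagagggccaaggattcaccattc
Clec4d: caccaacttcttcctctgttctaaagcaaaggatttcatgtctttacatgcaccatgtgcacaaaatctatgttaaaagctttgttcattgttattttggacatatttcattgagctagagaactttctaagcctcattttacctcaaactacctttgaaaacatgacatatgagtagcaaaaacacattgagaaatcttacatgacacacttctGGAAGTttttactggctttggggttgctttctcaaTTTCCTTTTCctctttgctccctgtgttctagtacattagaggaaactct
Clec12a: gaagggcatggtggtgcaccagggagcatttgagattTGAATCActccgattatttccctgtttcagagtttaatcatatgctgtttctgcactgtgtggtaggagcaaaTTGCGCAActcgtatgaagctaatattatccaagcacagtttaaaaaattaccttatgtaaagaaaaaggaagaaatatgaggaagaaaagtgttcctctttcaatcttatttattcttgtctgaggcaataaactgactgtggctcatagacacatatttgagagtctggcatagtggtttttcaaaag
Clec5a: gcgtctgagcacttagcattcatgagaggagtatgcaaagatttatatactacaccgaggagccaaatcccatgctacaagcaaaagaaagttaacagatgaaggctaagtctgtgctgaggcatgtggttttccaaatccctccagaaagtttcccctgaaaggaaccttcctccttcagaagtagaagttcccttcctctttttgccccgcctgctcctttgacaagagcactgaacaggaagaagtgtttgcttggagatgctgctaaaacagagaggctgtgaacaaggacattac

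The motifs searched were PU.1 (GGAAGT), C/EBP (TTGCNNAA), the interferon-stimulated response element (ISRE), AP-1 (TGANTCA) and the NF-kB motif, on both strands of 32851 promoter windows of the same length. The Clec4e window held the C/EBP motif, which 10.8% of all windows hold. The Clec4d window held PU.1, found in 23.8% of all windows, and ISRE, found in 3.44%. The Clec12a window held AP-1, found in 7.81%, and C/EBP. In the Clec4a2 window PU.1 and AP-1 were matched, and no motif was matched in those of Clec4a1, Clec4a3 and Clec5a. The NF-kB motif, found in 8.46% of all windows, was in none of those searched. No motif was thus matched in all raised genes. C/EBP was matched for both Clec4e and Clec12a, whereas Clec4a1, also raised after LPS, had no match. Clec4a2, which was not called, had matches to PU.1 and AP-1. A match or its lack in such a window is a description of letters and shows nothing of binding.

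In saline-treated control mice the receptors covered a wide range of levels. Per kilobase of exon (GENCODE M21 merged exons), Clec4a3 was the most abundant at 1726 normalized counts, followed by Clec5a at 1089, Clec4a2 at 563 and Clec4a1 at 214. Clec4n had 150 normalized counts per kilobase, and Clec12a at 25.3, Clec4d at 21.5 and Clec4e at 4.60 were the lowest. Among neighbours in this order, the ranges over the 3 libraries overlapped between Clec4a1 and Clec4n and between Clec12a and Clec4d. In control LPS the order per kilobase ran from Clec4a3 (3755) through Clec4a1 (1388), Clec5a (1082), Clec4a2 (755), Clec4d (433), Clec4n (334) and Clec4e (285) to Clec12a (137), and every pair of neighbours overlapped. In cKO LPS the order was Clec4a3 (3930), Clec4a1 (1797), Clec5a (1076), Clec4a2 (859), Clec4n (357), Clec4d (169), Clec4e (133) and Clec12a (90.0), with overlap between Clec5a and Clec4a2, Clec4d and Clec4e, and Clec4e and Clec12a. Clec4e was thus the least abundant receptor after saline and came above Clec12a by mean level in both LPS groups, where the ranges of these 2 genes overlapped.

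**Figure D1:**
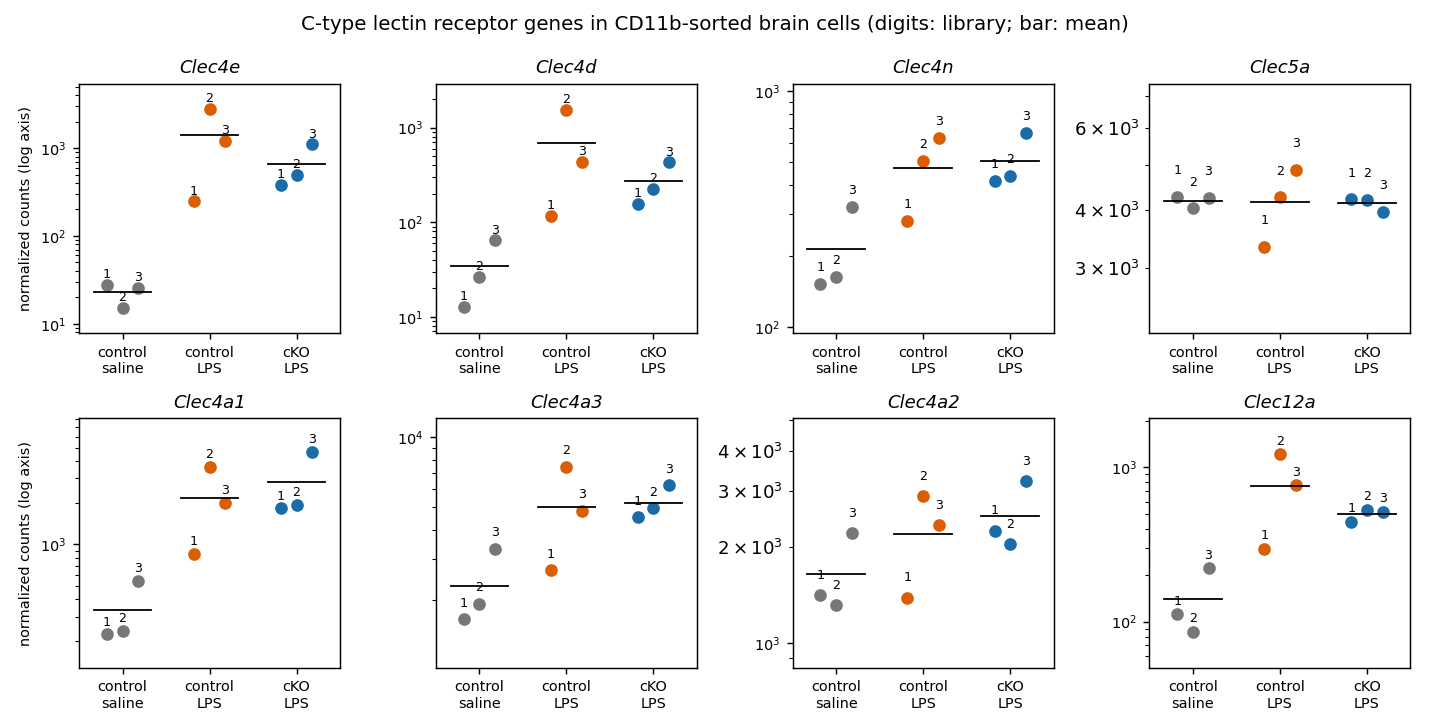
Normalized counts (log axis, a different range in each panel) of the 8 receptor genes in each library of the 3 groups; digits are library numbers and bars are group means. Clec4e, Clec4d, Clec4a1 and Clec12a lie higher in all 3 control LPS libraries than in any saline library, while the Clec5a means are 4181, 4153 and 4133 normalized counts.

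The comparison of control LPS with control saline addresses the response of the receptors to systemic LPS. Of the 8 genes, 4 rose and 0 fell at a limma adjusted p under 0.05 (Benjamini-Hochberg over all tested genes), against 4.68% of all tested genes that rose and 0.923% that fell. The 4 were Clec4e, Clec4d, Clec4a1 and Clec12a. The median log2 difference was 1.75 over the 8 genes and 0.02 over all tested genes. Fold changes are on the scale of log2(normalized count + 1), which understates the change of low genes. The same 4 genes had no overlap between groups, a pattern shown in the higher direction by 13.4% of all tested genes.

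Clec4e and Clec4d, activating receptor genes that lie side by side at the end of the cluster, had the highest fold changes of the 8. Clec4e encodes Mincle, a receptor for mycobacterial cord factor and for material released by dead cells. It had 27.6, 15.2 and 25.7 normalized counts after saline, 247, 2789 and 1202 in the LPS controls, and 383, 497 and 1103 in the LPS-treated cKO. All 6 LPS libraries lay above all saline libraries, and control LPS library 2 was the highest and library 1 the lowest of the LPS libraries. The mean rose from 22.9 ± 6.66 (SD, n = 3) to 1412 ± 1284 (SD, n = 3). The limma log2 fold change was 5.34 (95% interval 3.60 to 7.09, SE 0.77, adjusted p = 0.0061), a 40.6-fold difference. It was 6.31 without control LPS library 1 and 4.56 without control LPS library 2, and the gene passed the threshold under each of the 20 alternatives run. The saline values rest on few reads: 28, 11 and 8 were counted, against 278 to 3776 in control LPS.

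Clec4d encodes MCL, which pairs with Mincle at the cell surface. Its normalized counts were 12.8, 26.3 and 64.2 after saline, 115, 1532 and 429 in LPS controls, and 155, 227 and 428 in cKO LPS. Both LPS groups lay wholly above saline, with control LPS library 2 again the highest. The mean rose from 34.5 ± 26.6 (SD, n = 3) to 692 ± 744 (SD, n = 3), with a log2 fold change of 3.87 (95% interval 1.86 to 5.88, limma adjusted p = 0.0386). Within control LPS the highest library exceeded the lowest 13.3-fold for Clec4d and 11.3-fold for Clec4e. The Clec4d call was held in only 1 of the 9 fits that leave out a library, the fit without control LPS library 1 (4.80), and was lost in the other 8, with 2.94 without control LPS library 2. It was also lost under quantile normalization (3.61, limma adjusted p = 0.0695) and in a fit of the 6 libraries alone (adjusted p = 0.0931).

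Clec4n encodes dectin-2, a receptor for fungal mannans that also signals through Fcer1g. It had 152, 164 and 324 normalized counts after saline, 282, 505 and 634 in LPS controls, and 416, 436 and 667 in cKO LPS. Control LPS library 1 fell below the highest saline library, so those groups overlapped, whereas cKO LPS lay wholly above saline. The log2 difference for control LPS was 1.16 (95% interval 0.31 to 2.01) and did not pass the test (limma adjusted p = 0.126); without control LPS library 1 it was 1.49 and passed (adjusted p = 0.0271).

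Clec5a, which encodes the Tyrobp-coupled receptor MDL-1, was the steadiest of the 8. It had 4269, 4030 and 4245 normalized counts after saline, 3336, 4253 and 4872 in LPS controls, and 4218, 4210 and 3969 in cKO LPS. The 3 groups overlapped, and the group means were 4181 ± 132, 4153 ± 773 and 4133 ± 142 (SD, n = 3 each). The log2 difference between control LPS and saline was -0.03, with a 95% interval of -0.34 to 0.29 (limma adjusted p = 0.945).

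**Figure D2:**
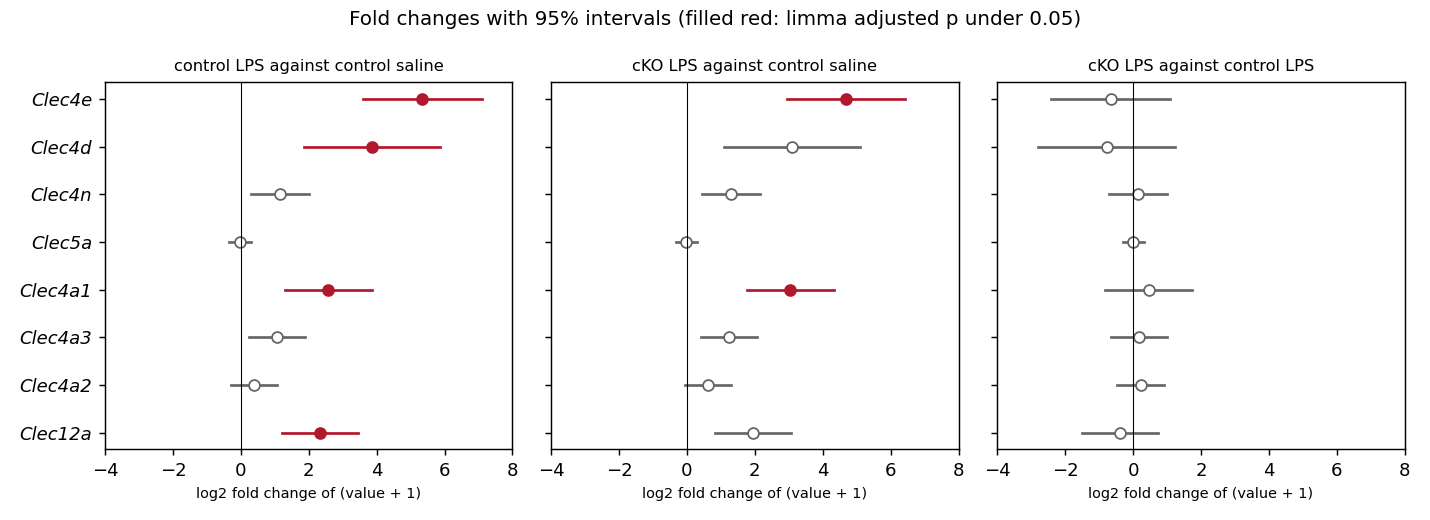
Log2 fold change of (normalized count + 1) of each receptor gene in the 3 comparisons, with 95% intervals from limma; filled points passed an adjusted p of 0.05. Clec4e has the highest fold change of the 8 in both comparisons with saline, and every interval for cKO LPS against control LPS covers 0.

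The genes of the DCIR group and Clec12a were graded in their response. Clec4a1 encodes a DCIR family member without an inhibitory motif in its tail. Its normalized counts were 223, 237 and 542 after saline, 856, 3644 and 1987 in LPS controls, and 1816, 1917 and 4664 in cKO LPS. Every LPS library was above every saline library, and cKO LPS library 3 was the highest of all. The mean rose from 334 ± 180 to 2162 ± 1402 (SD, n = 3 each), a log2 fold change of 2.58 (95% interval 1.29 to 3.87, limma adjusted p = 0.0331). Without control LPS library 1 the log2 fold change was 3.13 and the call held (limma adjusted p = 0.0045). Leaving out control LPS library 2 (2.09), control LPS library 3 (2.53), saline library 1 (2.35), saline library 2 (2.40) or cKO LPS library 2 (2.58) ended the call, as did the fit of the 6 libraries alone (adjusted p = 0.0622).

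Clec12a encodes the inhibitory receptor MICL, which binds uric acid crystals. It had 112, 85.9 and 221 normalized counts after saline, 297, 1212 and 767 in LPS controls, and 443, 533 and 517 in cKO LPS. The LPS libraries again lay wholly above saline, spread widely in control LPS and closely in cKO LPS. The mean rose from 140 ± 71.97 to 759 ± 458 (SD, n = 3 each), a log2 fold change of 2.33 (95% interval 1.21 to 3.45, limma adjusted p = 0.0286). The call held without control LPS library 1. It was lost without control LPS library 2 (1.88), control LPS library 3 (2.21), saline library 1 (2.23), saline library 2 (2.04) or cKO LPS library 2 (2.33). It was also lost under quantile normalization (limma adjusted p = 0.0507) and with the 6 libraries alone (adjusted p = 0.0875).

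Clec4a3, another DCIR family member without an inhibitory motif, was the most abundant receptor per kilobase in every group. It had 1646, 1912 and 3315 normalized counts after saline, 2677, 7440 and 4832 in LPS controls, and 4509, 4938 and 6200 in cKO LPS. Saline library 3 exceeded control LPS library 1, so the control groups overlapped, and the log2 difference of 1.07 (95% interval 0.24 to 1.90) did not pass the test (limma adjusted p = 0.149). Without control LPS library 1 it was 1.46 and passed (adjusted p = 0.0163). Clec4a2 encodes DCIR itself, which carries an inhibitory motif. It had 1413, 1316 and 2214 normalized counts after saline, 1392, 2889 and 2344 in LPS controls, and 2257, 2052 and 3231 in cKO LPS, with overlap between all groups. Its log2 difference was 0.40 (95% interval -0.28 to 1.08, limma adjusted p = 0.543). Of the 50-base words in Clec4a2 transcripts, 7.48% also occurred in transcripts of Clec4a4 or Clec4b1, so part of its reads could be split between genes. The other 7 genes shared none with another Clec gene.

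**Figure D3:**
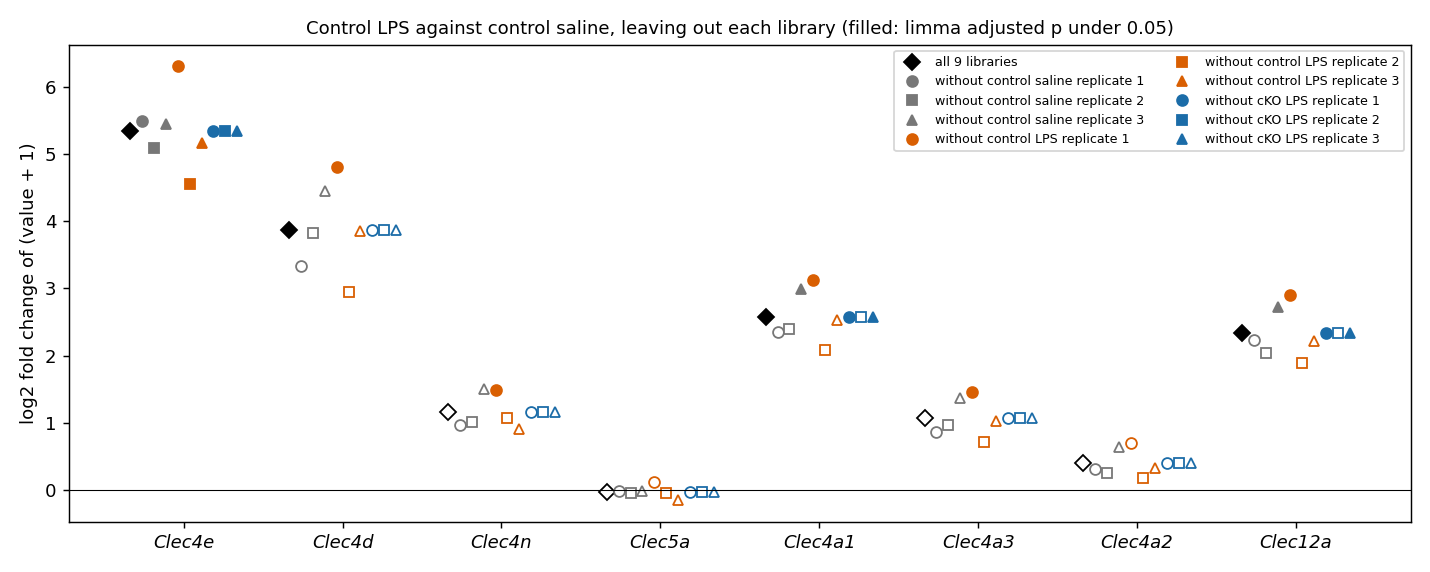
Log2 fold change of (normalized count + 1) for control LPS against control saline with all 9 libraries (diamonds) and with each library left out; filled symbols passed a limma adjusted p of 0.05. Clec4e is filled throughout, and leaving out control LPS library 1 raises all 8 values, with 6.31 for Clec4e and 4.80 for Clec4d.

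In the authors' deposited table for the same comparison, 6 of the 8 genes rose at an adjusted p under 0.05, against 7.75% of the genes with an adjusted p there. Clec4n (log2 fold change 1.17, adjusted p = 0.0374) and Clec4a3 (1.123, adjusted p = 0.0412) were the additional genes in the authors' deposited table. Clec4a2 and Clec5a were called by neither.

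Many markers of blood myeloid cells and some of lymphoid cells also rose in control LPS, where 4.68% of all tested genes rose and 0.923% fell. Of 13 neutrophil markers, 11 rose in control LPS, and the summed list ran from 28970 to 49180 normalized counts after saline, from 70510 to 162100 in control LPS and from 52720 to 94860 in cKO LPS. Its most abundant genes were Csf3r, at 27330 to 48410 normalized counts already after saline, and S100a9, at 297 to 751 after saline and 4238 to 34840 in control LPS. Mpo was at 0 in all 3 saline libraries, Elane was at 0 in saline libraries 1 and 2 and cKO LPS library 3, and Ly6g was at 0 in saline library 1. Of 12 monocyte markers, 7 rose and none was at 0, and the sum ran from 6739 to 11280 after saline, from 18790 to 48690 in control LPS and from 17700 to 33060 in cKO LPS. Within control LPS both sums were lowest in library 1 and highest in library 2, as were Clec4e, Clec4d, Clec4a1 and Clec12a. With a library left out, 8 to 11 neutrophil and 5 to 7 monocyte markers were called. Within cKO LPS, library 3 had the highest Clec4e, Clec4d and Clec4a1, the highest monocyte sum (33060) and the lowest neutrophil sum (52720). That neutrophil sum is mostly Csf3r, at 58910, 74370 and 37570 normalized counts in cKO LPS libraries 1 to 3. S100a9 was at 4790, 8587 and 6441, lowest in library 1, so the neutrophil markers did not share 1 order over these libraries. Of 12 homeostatic microglia markers 1 fell (0 without saline library 2 or 3, control LPS library 2 or 3, or cKO LPS library 1), and their sum was 1139000 to 1632000 after saline and 991800 to 1187000 in control LPS. Of 10 NK and T cell markers 7 were tested and 4 rose (2 without saline library 1, saline library 2 or control LPS library 2), with sums of 201 to 491 normalized counts after saline, 811 to 4534 in control LPS and 950 to 1518 in cKO LPS. Of 5 B cell markers 1 rose, with sums of 528 to 1277 after saline, 747 to 1771 in control LPS and 1442 to 1548 in cKO LPS. The part of these cells in the receptors' differences was not tested.

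**Figure D4:**
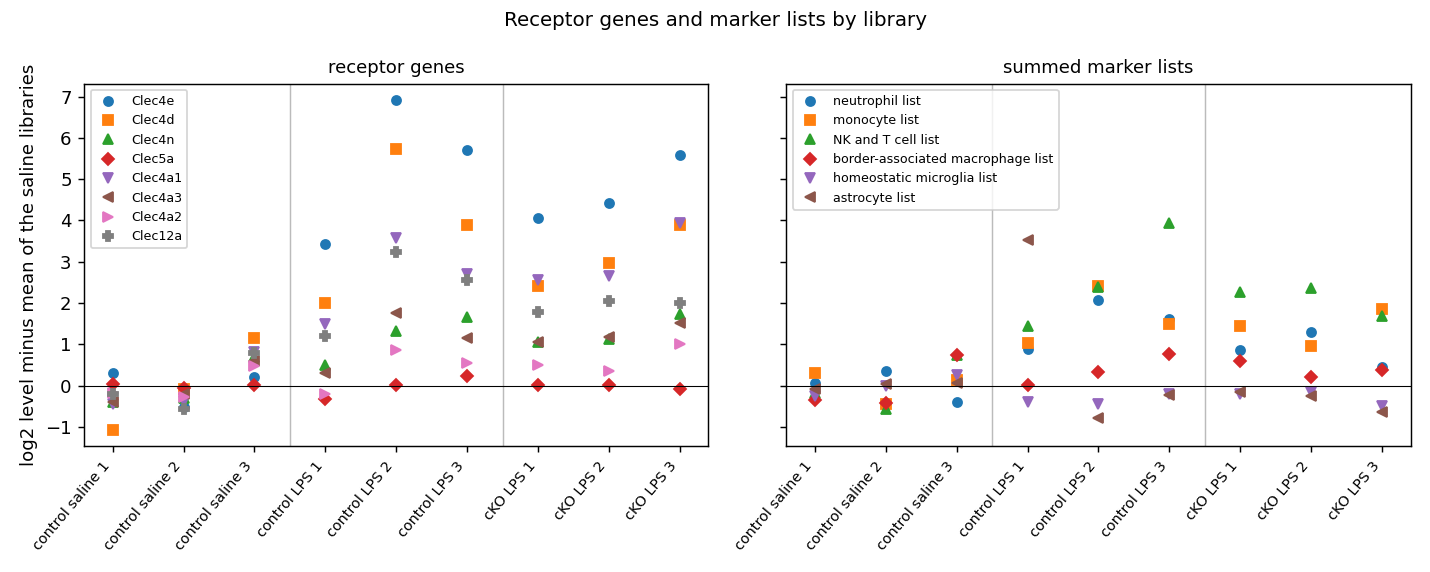
Log2 level in each library minus the mean log2 level of the 3 saline libraries, for the 8 receptor genes (left) and for summed marker lists (right); vertical lines separate the groups. Control LPS library 2 is highest for Clec4e, Clec4d and Clec12a and for the neutrophil and monocyte lists, and the astrocyte list stands out in control LPS library 1.

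The comparison of cKO LPS with control LPS addresses whether astrocyte Chd8 alters the receptors under LPS. Of the 8 genes 0 passed the limma threshold, as did 0% of all tested genes, and 0 of the 8 had an unadjusted p under 0.05, against 1.59% of all tested genes. All 8 overlapped between the groups, whereas 2.7% of all tested genes lay wholly higher and 2.32% wholly lower. On the recovered reads edgeR and DESeq2 also called 0 of the 8, and 0 and 4 over all genes. The authors' deposited table called none of the 8, with 0.00439% of its genes higher and 0.0132% lower. The DESeq2 run here reproduced that table, with the same 4 calls and log2 fold changes of the 8 within 3.02e-14. These 2 are thus not separate results. The mean of Clec4e was 661 ± 387 in cKO LPS and 1412 ± 1284 in control LPS (SD, n = 3 each), a log2 difference of -0.66 with a 95% interval of -2.40 to 1.09. For Clec4d the means were 270 ± 142 and 692 ± 744, and the log2 difference was -0.78 (-2.79 to 1.23). The intervals of these 2 genes reach several-fold lower and past 2-fold higher, so differences within that range remain compatible with these data.

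For the other receptors the intervals for cKO LPS against control LPS were narrower. Clec12a had means of 497 ± 47.6 and 759 ± 458 (SD, n = 3 each) and a log2 difference of -0.39 (-1.51 to 0.73). Clec4a1 had means of 2799 ± 1616 and 2162 ± 1402 and a log2 difference of 0.46 (-0.82 to 1.75). The log2 differences were 0.22 for Clec4a2, 0.17 for Clec4a3, 0.14 for Clec4n and 0.01 for Clec5a, with limma adjusted p = 0.9999 for all 8. Leaving out a single library turned the direction of each of the 8 genes. Without control LPS library 1 the log2 differences were -1.62 for Clec4e, -1.71 for Clec4d and -0.96 for Clec12a, and those of the other 5 genes turned negative (-0.21 for Clec4a3 to -0.08 for Clec4a2). Without control LPS library 2 those of Clec4e (0.12), Clec4d (0.15) and Clec12a (0.06) turned positive. Without cKO LPS library 3 that of Clec4n turned negative (-0.075), as did that of Clec5a without cKO LPS library 1 (-0.0055) or 2 (-0.0042).

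Set against the same saline libraries, 2 of the 8 receptors rose in cKO LPS by the limma test, where 5.41% of all tested genes rose and 1.41% fell. Since both comparisons share the saline libraries, their values stand side by side and not as independent evidence. Clec4e had a log2 fold change of 4.68 (limma adjusted p = 0.0088) in cKO LPS beside 5.34 in control LPS, and Clec4a1 had 3.04 (adjusted p = 0.015) beside 2.58. Clec12a at 1.94 (limma adjusted p = 0.0504), Clec4d at 3.09 (0.0751), Clec4n at 1.30 (0.0773) and Clec4a3 at 1.24 (0.0828) missed the threshold. Clec4a2 at 0.62 and Clec5a at -0.02 had adjusted p-values of 0.267 and 0.958. The groups did not overlap for 6 genes, all but Clec4a2 and Clec5a, a pattern shown in the higher direction by 17.9% of tested genes. The authors' deposited table called those 6 genes higher, against 8.74% of its genes. The Clec4a1 call was lost without cKO LPS library 3 (2.60), saline library 1 (2.82) or saline library 2 (2.86).

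Among 28 other C-type lectin genes listed, 24 were in the table and 21 were tested. Of the 21, 4 rose and 4 fell in control LPS, where 4.68% of all tested genes rose and 0.923% fell. The median log2 difference of the 21 was -0.23. Those that rose were Clec7a (dectin-1, the receptor for fungal beta-glucan; 2.24), Clec2d (a ligand of an NK cell receptor; 1.32), Clec2i (2.56) and the lymphocyte activation marker Cd69 (4.10). Clec7a went from 395 to 902 normalized counts after saline to 2295 to 3758 in control LPS. The 4 that fell were Mgl2, a galactose-type lectin of macrophages and dendritic cells (-2.76), and the DC-SIGN relatives Cd209a (-4.04), Cd209b (-2.77) and Cd209c (-3.27). Mgl2 had 334 to 1306 normalized counts after saline and 53.2 to 132 in control LPS, without overlap. The 8 receptors described here held 4 genes that rose and 0 that fell, where the other lectins held 4 of each. The difference between these counts was not tested. Both lists were chosen with earlier results of these data known, so the contrast of counts may follow from that choice. The summed dendritic cell markers, which include Cd209a, were at 2131 to 5705 normalized counts after saline and 2094 to 2372 in control LPS. Most of this sum is H2-Ab1, at 1441 to 4707 after saline. Of the 7 dendritic cell markers tested, 1 rose (Ccr7, 2.79) and 1 fell (Cd209a). The log2 difference was positive for 4 of the 7, with a median of 0.19. The part of dendritic cells in these falls was not tested. In the 9 fits that leave out a library, Cd69, Clec2i and Cd209a always passed, Clec7a passed in 7 (not without control LPS library 2 or 3), and Clec2d (not without saline library 2 or 3 or control LPS library 3) and Cd209b (not without saline library 1 or control LPS library 2 or 3) in 6. Mgl2 and Cd209c passed in 3, among them the fit without control LPS library 1. The list held 9 called genes without control LPS library 1 and 3 without control LPS library 3. Clec4a4 and Clec4b1, which lie inside the cluster, were tested and not called.

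**Figure D5:**
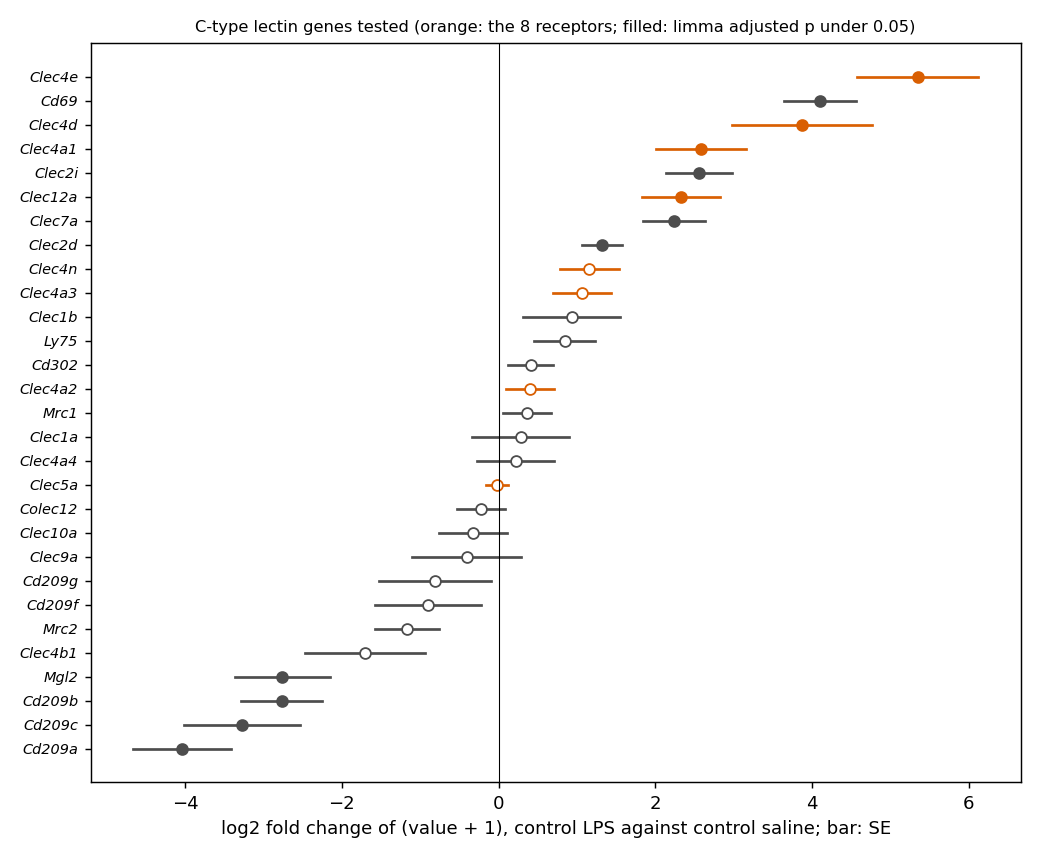
Log2 fold change of (normalized count + 1), control LPS against control saline, for the 8 receptors (orange) and the 21 other C-type lectin genes tested (grey), with SE bars; filled points passed a limma adjusted p of 0.05. The values run from -4.04 for Cd209a to 5.34 for Clec4e.

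Partners of the receptors inside the cell were read from the same fit. There, 4.68% of all tested genes rose in control LPS and 0.923% fell. None of the 3 adaptors passed the test in control LPS: Tyrobp had a log2 difference of 0.48 (limma adjusted p = 0.262), Fcer1g 0.47 (0.304) and Hcst, the DAP10 adaptor, 0.58 (0.491). Tyrobp and Fcer1g were abundant in every library, at 24520 to 47540 and 16190 to 32670 normalized counts. Of 20 genes of the Syk and Card9 pathway 1 rose, a share near that of all tested genes. It was the exchange factor Vav3 (log2 fold change 3.07, limma adjusted p = 0.0029), from 24.7 to 31.9 normalized counts after saline to 161 to 400 in control LPS. The list's median was 0.15, with 0.14 for Syk and 0.17 for Card9. The 3 phosphatases used by inhibitory receptors did not pass, with log2 differences of 0.37 for Ptpn6, -0.06 for Ptpn11 and -0.18 for Inpp5d. Among genes for factors whose motifs were searched, those that passed included Irf7 (3.12), Cebpe (2.11) and Stat2 (1.28), which rose, and Jun (-1.27), which fell. Irf7, Stat2 and Vav3 passed whichever library was left out, whereas the call of Cebpe held in 1 of 9 such fits, without control LPS library 1, and that of Jun in 1 of 9, without cKO LPS library 3. None of the genes on these lists was called between cKO LPS and control LPS.

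Over the 9 libraries, the 7 receptor genes other than Clec5a varied together, with pairwise Pearson correlations of log2 values from 0.738 to 0.967, while Clec5a had correlations of 0.131 to 0.388 with them. These are descriptions over libraries that share the LPS contrast. The genes most like Clec4e over the 9 libraries were Hp (r = 0.999), Mcemp1 (0.997) and Il18rap (0.995), and Hp is on the monocyte marker list. For Clec4d they were Gapt (0.984), Fcgr2b (0.981) and Riox2 (0.98), for Clec12a Pi16 (0.991), Krt80 (0.989) and Wfdc17 (0.988), and for Clec4a1 Slc31a2 (0.99), Mmp14 (0.989) and Aoah (0.988). Clec4a3 was most like Btnl2 (0.977), Lrrc25 (0.973) and Rps13 (0.972), Clec4a2 most like Ada (0.98), Cmpk1 (0.978) and M6pr (0.978), and Clec4n most like Esd (0.992), Asnsd1 (0.991) and Rpl32 (0.991). Clec5a was most like Camk1 (0.973), Nrros (0.968) and Ptp4a2 (0.939). With Spearman's coefficient at most 1 of the 3 genes remained for any receptor.

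Among the saline libraries themselves, library 3 was the highest for Clec4d, Clec4n, Clec4a1, Clec4a3, Clec4a2 and Clec12a, and not for Clec4e or Clec5a. Clec4a1 was at 542 normalized counts in it against 223 and 237, and Clec12a at 221 against 112 and 85.9. Several marker sums were also highest in it among the saline libraries. For border-associated macrophages the sum was 12950 normalized counts against 6095 and 5788, for dendritic cells 5705 against 3819 and 2131, and for homeostatic microglia 1632000 against 1139000 and 1346000. For B cells it was 1277 against 632 and 528, and for NK and T cells 491 against 263 and 201. The neutrophil sum was instead lowest in library 3, at 28970 against 39850 and 49180. The monocyte, oligodendrocyte and endothelial cell sums were not highest in it. Library 3 also had the lowest depth. The part of these cells and of depth in the receptors' levels was not tested.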

How the data were processed

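The authors deposited normalized signal per gene (gene counts divided by a size factor) for 9 libraries, and their own comparisons with log2 fold changes, p-values and adjusted p-values. The authors' tables also hold standard errors and Wald statistics (scores), which were not used. The submitters' processing notes name build mm10, and among the tools STAR, featureCounts, RSEM, DESeq2, edgeR 3.30.3, Trimmomatic, MultiQC 1.12 and FastQC, without their roles. Whether counting used the strand is not given. Every value came out as whole reads within 0.01 (100% of values).

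Values were compared as log2(value + 1) with limma 3.58.1 (R 4.3.3) in a single fit of all 9 libraries over genes with a mean of at least 10, with Benjamini-Hochberg adjustment within each comparison and a threshold of 0.05. Alternatives were other pseudocounts, filters and scalings, array weights, edgeR 4.0.16 and DESeq2 1.42.0 on the recovered counts, the 6 libraries of a comparison alone, a replicate block, and each library left out. The scripts were tested on simulated data. No replicate pair agreed within sampling noise (chi-square per degree of freedom from 35.2 to 196). Libraries are named by their number in the labels.

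The receptors and the gene lists were chosen with earlier results of these data known. Besides the 8 receptors, the text names at most 4 called genes per pathway list by smallest adjusted p, all adaptors and phosphatases, the 2 most abundant genes of the neutrophil list and markers at 0, and the 3 genes most correlated with each receptor. Further called lectins and factors, and Clec4a4, Clec4b1, Syk, Card9, H2-Ab1 and Ccr7, were named after their values were seen. Promoters and gene positions are from RefSeq (GRCm38.p6) and exon lengths from GENCODE M21. Protein sequences were not used here.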

Additional observations from a re-analysis of the deposited data

How the results depend on the processing

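The count of receptors that rose in control LPS was 4. It was 6 with array weights, 6 with DESeq2, 2 under quantile normalization, 1 with the 6 libraries alone, and 1 to 6 when a library was left out. For cKO LPS against saline the count was 2; it was 7 with array weights, 6 with DESeq2, 5 with the 6 libraries alone, and 1 to 6 when a library was left out. The labels do not say whether same-numbered libraries share more than a number. Their deviations from the group means correlated from -0.07 to 0.47, highest for the libraries numbered 1 (0.37, 0.468 and 0.387). Whether they share a litter or day was not tested. With the replicate block 5 receptors rose in control LPS and 6 in cKO LPS against saline. For cKO LPS against control LPS the count of receptors called was 0 under all alternatives run. In these, array weights turned the direction of Clec5a after LPS in controls (0.077) and, between genotypes, of Clec4a1 (-0.056), Clec4a2 (-0.044), Clec4a3 (-0.10), Clec4n (-0.23) and Clec5a (-0.093), and DESeq2 turned that of Clec5a (-0.0073). With a library left out, the log2 difference between genotypes ran from -0.088 to 0.96 for Clec4a1, -0.079 to 0.45 for Clec4a2, -0.21 to 0.52 for Clec4a3, -1.71 to 0.15 for Clec4d, -1.62 to 0.12 for Clec4e, -0.19 to 0.39 for Clec4n, -0.14 to 0.13 for Clec5a and -0.96 to 0.056 for Clec12a. That of Clec5a ran from -0.15 to 0.12 in control LPS and from -0.043 to 0.012 in cKO LPS against saline. The cause of these changes was not tested.

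Over all genes, 929 were called in control LPS against saline, 374 to 1826 with a library left out, 1770 with DESeq2, 2789 with array weights and 417 with the 6 libraries alone. For cKO LPS against saline 1131 were called, 490 to 1656 with a library left out, 2064 with DESeq2 and 3182 with array weights. Quantile scaling moved the median of all genes in control LPS to -0.10 (from 0.02) and the share of higher calls to 70.0% (from 83.5%), and equal medians moved it to -0.10. Few reads limit Clec4e and Clec4d after saline (8 to 28 reads for Clec4e and 13 to 20 for Clec4d).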
